A study of Mus musculus with 12 samples.

Results

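Oxidative phosphorylation genes were followed here through 12 RNA-seq libraries labelled as mouse CD8 T cells. They encode the subunits of complexes I to IV of the mitochondrial electron transport chain and of complex V, the ATP synthase. Members were taken by symbol (Nduf without the Ndufaf assembly factors, Sdha to Sdhd, Uqcr, Cox4 to Cox8, Atp5, and the mt-Nd, mt-Co, mt-Cytb and mt-Atp genes), which gave 99 protein-coding genes of the 35855 genes in the files. The nuclear genome holds 86 of them and the mitochondrial genome 13. Complexes follow the symbols, so that Ndufa4 and Ndufa4l2 are counted in complex I. Cyc1 of complex III is not matched and is counted with other lists below. Complex I has 38 nuclear and 7 mitochondrial members, complex II has 4 nuclear members, complex III has 8 and 1, complex IV has 18 and 3, and complex V has 18 and 2.

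The donors were C57BL/6 mice, either wild type (WT) or TCF-1 cKO. TCF-1 is the transcription factor encoded by Tcf7, and the knockout deletes a floxed Tcf7 with a CD4-driven Cre, so that the deletion is made in all T cells that pass through the CD4+CD8+ stage. Pre-transplant libraries are described as CD8 T cells sorted from donor spleen. Post-transplant libraries are described as H2Kb+ donor CD8 T cells sorted at day 7 from the spleens of lethally irradiated BALB/c recipients. These recipients had received donor CD3 T cells with WT bone marrow depleted of T cells. All samples are labelled C57BL/6. The study lists both C57Bl/6J and the congenic B6-Ly5.1 line as WT donors and does not say which gave these libraries, and nothing in the sources says whether the 3 libraries of a group came from separate animals. Each of the 4 groups held 3 libraries from 1 experiment. For replicate 2 of the day 7 knockout group, the title says CD8 and the source field says CD4. In CPM, the counts of a gene scaled to the same total in every library, Cd8a was at 432 and Cd4 at 1.42 there.

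In the respiratory chain, electrons from NADH enter at complex I and those from succinate at complex II, pass through complex III and cytochrome c, and reach oxygen at complex IV. The proton gradient built on the way drives the ATP synthase. Most subunits are made in the cytosol from nuclear genes and imported, while a few core subunits are translated inside mitochondria from polycistronic transcripts of mitochondrial DNA (mtDNA), so that working complexes need both genomes. T cells raise mitochondrial respiration as well as glycolysis when they are activated.

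Library totals ran from 4520270 to 32657005 estimated counts, and the 3 TCF-1 cKO pre-transplant libraries were the shallowest. The labelled cell type did not hold at both stages. In the pre-transplant libraries the summed level of 8 B cell markers was 19986 to 24122 CPM in WT and 13213 to 20738 CPM in TCF-1 cKO, against 444 to 514 CPM and 327 to 484 CPM post-transplant. The summed level of 9 T cell markers was 2786 to 3412 CPM (WT) and 1138 to 1754 CPM (TCF-1 cKO) pre-transplant, and 9098 to 14866 CPM and 11557 to 13779 CPM post-transplant. The 7 erythroid markers summed to 4459 to 17449 CPM and 4884 to 26474 CPM pre-transplant and to at most 1194 CPM in any post-transplant library, and no marker of these 3 lists was at 0 in all libraries of a group. Every comparison between stages therefore sets libraries rich in B cell and erythroid transcripts against libraries rich in T cell transcripts, and the stage and the cell content cannot be told apart. In bulk RNA, fewer cells of a type and less RNA per cell cannot be told apart either. Tcf7 stood at 152, 115 and 205 CPM in WT and 56.8, 78.9 and 97.1 CPM in TCF-1 cKO pre-transplant. Its post-transplant values were 17.2, 12.1 and 6.89 CPM for WT and 9.0, 9.48 and 9.31 CPM for TCF-1 cKO, so that the library labelled WT post-transplant replicate 3 lay below all 3 knockout libraries. Counts of genes called between genotypes at day 7 are given with and without that library.

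Promoter stretches of a few nuclear members are shown for the members whose levels are described below. Nuclear respiratory factor 1 (NRF-1) and GABP, an ETS factor, are known to bind promoters of respiratory genes. RefSeq promoters (250 bases before to 50 after the annotated start, GRCm38.p6) were found for 67 of the 86 nuclear genes. The NRF-1 motif (GCGCA, then any base, then GCGC) was present on either strand in 17 of 67 (25.4%) and in 5.19% of all 27025 genes with a promoter of this length. CCGGAAG, an ETS core, was present in 16 of 67 (23.9%) and in 9.93% of all genes, and both motifs occurred in Atp5h, Atp5k, Cox6a1 and Sdhd. The 2 motifs can overlap by no more than 1 base, and a match is a description, not a binding site. The stretches below run 5′ to 3′ on the strand of the gene, which is the minus strand for all 4, with the NRF-1 motif in capitals, and lie upstream of the annotated start of the gene.
Atp5h, chr11:115420026-115420085: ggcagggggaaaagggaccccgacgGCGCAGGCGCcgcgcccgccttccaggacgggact
Cox6a1, chr5:115349086-115349145: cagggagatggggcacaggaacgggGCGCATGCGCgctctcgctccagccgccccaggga
Sdhd, chr9:50603894-50603953: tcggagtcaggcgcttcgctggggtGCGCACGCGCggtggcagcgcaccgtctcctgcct
Atp5g2, chr15:102671055-102671114: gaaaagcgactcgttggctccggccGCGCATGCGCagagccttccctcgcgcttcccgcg
All 4 genes were called higher post-transplant in WT (2.53 for Atp5h, 2.49 for Cox6a1, 1.43 for Sdhd and 2.17 for Atp5g2, as log2 fold changes). The WT groups of Cox6a1 and Sdhd overlapped in CPM. In TCF-1 cKO Atp5h was called higher (4.63, adjusted p = 0.000149). There Cox6a1 (0.59, adjusted p = 0.51), Sdhd (−0.15, adjusted p = 0.83) and Atp5g2 (0.32, adjusted p = 0.56) did not pass. Between genotypes at day 7, Cox6a1, Sdhd and Atp5g2 were lower in TCF-1 cKO, and Atp5h did not pass (0.92, adjusted p = 0.19). The 4 genes are examples of the 17 members with the NRF-1 motif. Of the others, Uqcrc1 was also lower (−3.05), while Ndufa5 (1.63, adjusted p = 0.17) and Ndufs5 (1.08, adjusted p = 0.18) did not pass. A relation between the motif and these values was not tested.

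As a share of the library, the 86 nuclear genes together held 1.07%, 1.34% and 1.06% of counts in WT pre-transplant and 0.829%, 0.841% and 1.27% in TCF-1 cKO pre-transplant. At day 7 they held 2.87%, 2.70% and 3.66% in WT and 3.38%, 3.77% and 3.49% in TCF-1 cKO. All 6 post-transplant libraries lay above all 6 pre-transplant libraries, and the genotypes overlapped at both stages. The 13 mitochondrial genes held 2.53%, 0.648% and 2.33% in WT and 2.92%, 3.25% and 0.567% in TCF-1 cKO pre-transplant. At day 7 they held 2.70%, 1.08% and 4.60% in WT and 8.15%, 4.68% and 6.55% in TCF-1 cKO. Mitochondrial transcripts thus varied far more among libraries of a group than nuclear ones. The 3 TCF-1 cKO libraries at day 7 lay above every other library, by a narrow margin over WT replicate 3. On the TPM scale, which corrects counts for transcript length, the day 7 groups overlapped. The ratio of mitochondrial to nuclear counts was 1.68 ± 1.04 (SD, n = 3) in WT and 2.61 ± 1.88 in TCF-1 cKO pre-transplant and 0.867 ± 0.433 in WT and 1.84 ± 0.586 in TCF-1 cKO post-transplant, and the groups overlapped in every comparison of this ratio.

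**Figure D1:**
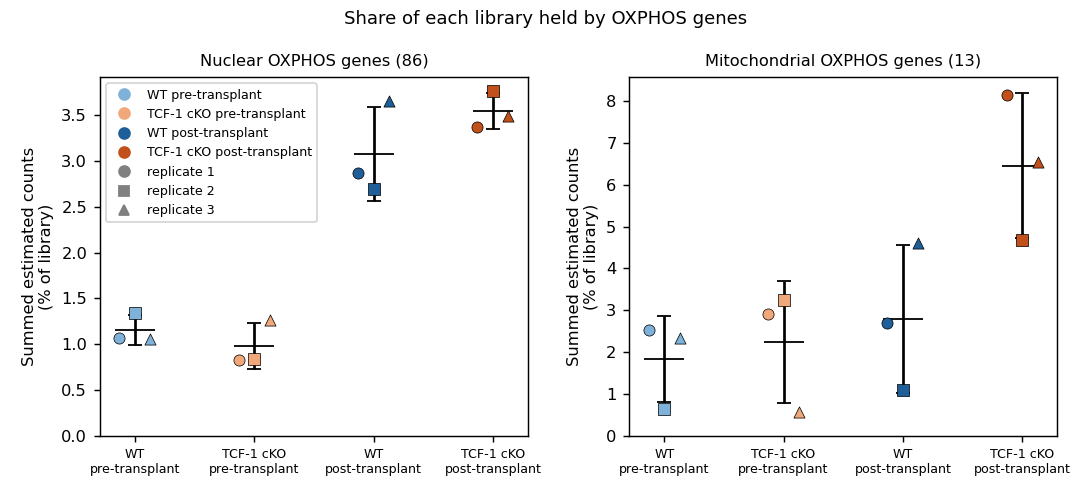
Summed estimated counts of the 86 nuclear genes (left) and the 13 mtDNA-encoded genes (right) as a percent of each library, with the 3 libraries of each group as points and the mean ± SD as bars. The nuclear share is at most 1.34% in each pre-transplant library and at least 2.70% in each post-transplant library, while the mitochondrial share spans 0.567% to 8.15%.

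By complex, the nuclear counts rose between stages in each of the 5 complexes with no overlap between groups. In WT, complex I went from 3787 ± 760 to 10417 ± 2537 CPM (SD, n = 3), complex II from 770 ± 50.7 to 1732 ± 471, complex III from 1369 ± 282 to 3661 ± 133, complex IV from 1822 ± 387 to 6489 ± 1425, and complex V from 3800 ± 233 to 8445 ± 717. In TCF-1 cKO, complex I went from 3667 ± 799 to 12913 ± 908 CPM, complex II from 568 ± 52.5 to 1698 ± 236, complex III from 987 ± 410 to 3740 ± 26.2, complex IV from 1524 ± 595 to 7519 ± 435, and complex V from 3046 ± 646 to 9584 ± 521. Compared per length, Cox4i1, the ubiquitous form of complex IV subunit 4, had the highest mean TPM of all nuclear members in WT at both stages (862 and 3881 TPM). Cox6c, another complex IV subunit, led in TCF-1 cKO at day 7 (3705 TPM), and Ndufb2, a complex I accessory subunit, led in TCF-1 cKO pre-transplant (748 TPM). mt-Co3, a core subunit of complex IV, had the highest TPM of the 13 mitochondrial genes in all 4 groups.

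In the comparison of post- with pre-transplant WT libraries, 66 of the 94 members tested were higher and 1 was lower at an FDR of 0.1. Over all 16790 genes, 9.70% were higher and 10.3% lower. The nuclear genes carried the change, with 64 of 81 higher and a median log2 fold change of 2.17, while 2 of 13 mitochondrial genes were higher, with a median of 0.80. The median of all genes was −0.30. These fold changes follow TMM scaling, which is set by the bulk of genes. Scaled to library totals instead, the median of all genes fell to −1.25, and 35 members were higher and 2 lower (4.27% and 24.6% of all genes), with medians of 1.18 for nuclear and −0.01 for mitochondrial members. Without the library labelled WT post-transplant replicate 3, 71 members were higher and 2 lower, against 13.4% and 8.79% of all genes. Without WT pre-transplant replicate 1 or 3 the higher members numbered 37 or 33. At an unadjusted p under 0.05, 74 of 94 members differed, against 28.1% of all genes. Higher calls by complex were 31 of 37 nuclear members of complex I, 2 of 4 of complex II, 6 of 8 of complex III, 11 of 15 of complex IV and 14 of 17 of complex V.

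Ndufb11, an accessory subunit of the complex I membrane arm, had the smallest p in WT. It stood at 101, 115 and 102 CPM pre-transplant and 582, 607 and 1208 CPM post-transplant (log2 fold change 3.84 ± 0.474 SE, adjusted p = 0.00125). Sdhb, the iron-sulfur subunit of complex II, went from 230, 190 and 197 to 1067, 1133 and 1926 CPM (3.67 ± 0.456, adjusted p = 0.00127). Cox4i1 went from 344, 620 and 386 to 1840, 2092 and 3198 CPM (3.37 ± 0.446, adjusted p = 0.00176). In all 3 genes every post-transplant library was above every pre-transplant library. Ndufa13, which links the complex I arms and is also known as Grim19, rose by a log2 fold change of 3.36 ± 0.459 (adjusted p = 0.00213) and Ndufb8, a complex I subunit widely used as a marker of its assembly, by 3.05 ± 0.446 (adjusted p = 0.00268). Their groups did not overlap, and 42 of 81 nuclear members in all were higher in CPM without overlap, against 6.21% of all genes.

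In TCF-1 cKO, 76 of 94 members were higher post-transplant and 1 was lower, with 19.7% and 16.8% of all 18535 genes called in these directions. The median log2 fold change was 3.33 for nuclear members (65 of 81 higher), 2.37 for mitochondrial members (11 of 13 higher) and −0.29 for all genes. With library totals, 61 were higher and 7 lower (8.96% and 57.2% of all genes), with medians of 1.87, 0.67 and −1.89. By complex, 34 of 37 nuclear members were higher in complex I, 2 of 4 in complex II, 6 of 8 in complex III, 10 of 15 in complex IV and 13 of 17 in complex V. At an unadjusted p under 0.05, 78 of 94 members differed, against 40.1% of all genes. Of the members called with TMM, 5 had the opposite sign with library totals (Ndufs3, Sdha, Atp5b, Ndufs1 and mt-Nd4l).

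Cox6c went from 96.5, 113 and 71.0 CPM to 1341, 1408 and 1624 CPM in TCF-1 cKO (5.57 ± 0.379, adjusted p = 0.000105). Ndufc2, a membrane-arm subunit of complex I, went from 32.1, 40.5 and 24.9 to 351, 443 and 461 CPM (5.29 ± 0.377, adjusted p = 0.000105). Ndufa4, which was first assigned to complex I and is now known as a subunit of complex IV, went from 83.4, 85.4 and 67.9 to 844, 826 and 1058 CPM (5.11 ± 0.379, adjusted p = 0.000105). The groups of these genes lay far apart. Atp5mpl, a small membrane subunit of the ATP synthase, rose by 5.54 ± 0.418 and Ndufb4 of complex I by 5.27 ± 0.386 (adjusted p = 0.000105 for both). Ndufb4 has an identical copy, described below. Without overlap in CPM, 57 of 81 nuclear members were higher and 6 lower, against 10.2% and 54.4% of all genes. The comparisons in WT and in TCF-1 cKO were also set against each other over all 12 libraries. Members did not pass that test of the change in the genotype difference (0 of 96 by edgeR or limma-voom, 33 of 96 at an unadjusted p under 0.05, and 14 higher and 3 lower by DESeq2). Among all 21526 genes 15.7% had an unadjusted p under 0.05, and 0.00465% passed the FDR, all lower. With library totals 0 of 96 members passed, against 0.00465% of all genes higher and 0.0186% lower. Without the library labelled WT post-transplant replicate 3, 23 members passed as higher and 4 as lower, against 5.48% and 3.25% of all genes.

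**Figure D2:**
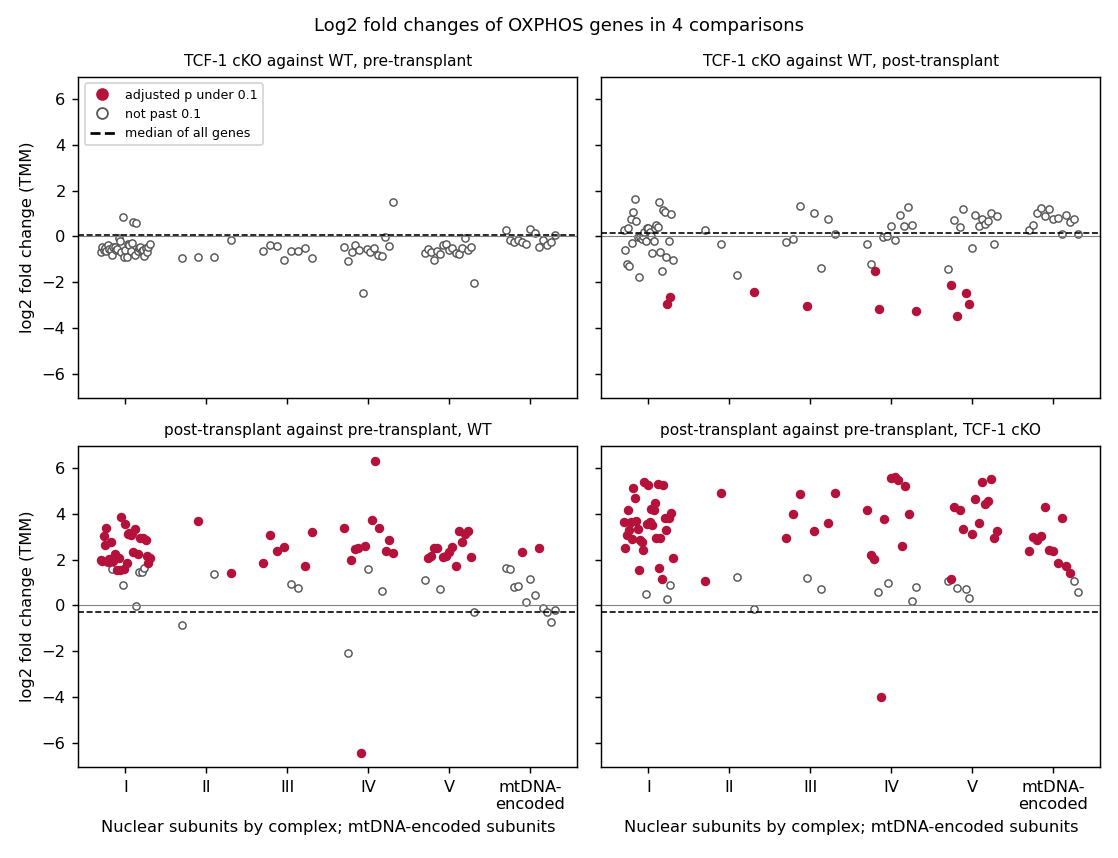
Log2 fold change after TMM scaling (y axis) of each tested member, by complex for nuclear subunits and together for the mtDNA-encoded ones, in the 4 comparisons; filled points passed an adjusted p of 0.1 and the dashed line is the median of all genes. Most points of the lower panels lie above that median, and the post-transplant genotype panel has 11 filled points, all negative.

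The catalytic and core subunits did not move as a block. In complex II, Sdha, the flavoprotein that oxidizes succinate, stood at 418, 290 and 430 CPM in WT pre-transplant and 158, 30.7 and 155 CPM post-transplant (log2 fold change −0.87 ± 0.583, adjusted p = 0.37). With library totals Sdha fell by 1.73 on the log2 scale (adjusted p = 0.0625). In TCF-1 cKO it stood at 301, 234 and 229 CPM before and 206, 131 and 196 CPM after, and its sign depended on the scaling (1.07 with TMM, −0.53 with library totals). Sdhb of the same complex rose in both genotypes, by 4.92 ± 0.462 in TCF-1 cKO (adjusted p = 0.000149). Sdhc, a membrane anchor subunit, did not pass in either genotype (1.35 ± 0.498, adjusted p = 0.103 in WT; 1.22 ± 0.559, adjusted p = 0.134 in TCF-1 cKO). Ndufs1, the largest complex I subunit and part of its NADH-oxidizing module, was at 44.7, 54.3 and 71.4 CPM in WT pre-transplant and 42.7, 14.0 and 30.8 CPM post-transplant (adjusted p = 0.97). In TCF-1 cKO Ndufs1 was called higher with TMM (1.63 ± 0.391, adjusted p = 0.0129), and its sign was opposite with library totals. Ndufs8, a core subunit that carries iron-sulfur clusters, rose by 2.86 ± 0.453 in WT and by 3.8 ± 0.513 in TCF-1 cKO. Uqcrfs1, the Rieske protein of complex III, did not pass in either (0.77 ± 0.548 and 0.72 ± 0.413). Uqcrc2, a core protein of complex III, went from 64.8, 103.8 and 141 CPM to 384, 249.7 and 409 CPM in TCF-1 cKO (3.26 ± 0.501, adjusted p = 0.00132) and did not pass in WT (0.93 ± 0.503, adjusted p = 0.26). The difference between its stage changes did not pass (2.07 ± 0.715, adjusted p = 0.25). Cox5a and Cox5b of complex IV rose in both, by 1.99 ± 0.473 and 2.48 ± 0.522 in WT and by 2.18 ± 0.374 and 2.01 ± 0.538 in TCF-1 cKO. Atp5a1, the α subunit of the ATP synthase, did not pass in either (1.09 ± 0.421 and 1.05 ± 0.476), whereas Atp5c1, the γ subunit of its rotor, rose by 2.15 ± 0.534 and 4.29 ± 0.422.

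Isoform genes differed as well. Cox6a2, the heart and muscle form of complex IV subunit 6a, was the member called lower in both genotypes. It was at 5.3, 36.6 and 7.0 CPM in WT and 1.9, 1.1 and 6.6 CPM in TCF-1 cKO pre-transplant and at or below 0.2 CPM in all 6 post-transplant libraries (adjusted p = 0.00975 and 0.0795). Cox7a1, the muscle form of subunit 7a, was at or below 0.7 CPM in all 6 pre-transplant libraries and at 2.5, 2.7 and 4.6 CPM (WT) and 5.3, 2.4 and 3.9 CPM (TCF-1 cKO) post-transplant (adjusted p = 0.0196 and 0.00365). Cox4i2, Cox6b2, Cox7b2, Cox8b, Cox8c and Ndufa4l2 did not exceed 4.75 CPM in any library. The c subunit ring of the ATP synthase is built from 1 mature protein encoded by Atp5g1, Atp5g2 and Atp5g3. Atp5g3 gave 35.6%, 37.2% and 42.3% of the TPM of the 3 genes in WT pre-transplant, 44.3%, 41.7% and 33.3% in TCF-1 cKO pre-transplant and 37.8%, 35.0% and 60.6% in WT post-transplant. In TCF-1 cKO post-transplant it gave 77.1%, 70.4% and 77.0%, above all 9 other libraries, and the library labelled WT replicate 3 was the nearest to them. These shares leave out Gm10175, a copy of Atp5g2 described below, and the division of reads between Atp5g2 and this copy is uncertain. Transcript GC content was 56.2% for Atp5g1, 56.5% for Atp5g2 and 50.4% for Atp5g3, and its part in the shares was not tested.

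Before transplant, no member passed the FDR between genotypes (0 of 93 by edgeR and by limma-voom, and 1 lower by DESeq2). Of all 18757 genes, 0.0160% were higher and 0.0213% lower. Only 2 of 93 members had an unadjusted p under 0.05, against 17.7% of all genes. The values leaned to 1 side, with 85 of 93 below 0 and a nuclear median of −0.58 (−0.28 with library totals) against 0.05 (0.39) for all genes. In CPM, 8 members were lower without overlap and 2 higher, against 6.33% and 21.5% of all genes. With library totals 0 of 93 members passed, against 0.0480% of all genes higher and 0.0160% lower. The result turned on 1 library. Without TCF-1 cKO pre-transplant replicate 3, 30 nuclear members were lower and none higher (8.91% and 3.79% of all genes), among them Uqcrc1 (−1.90, adjusted p = 0.0158), a core protein of complex III, Atp5d (−1.90, adjusted p = 0.0197), the δ subunit of the ATP synthase, and Ndufs7 (−1.99, adjusted p = 0.0199), a core complex I subunit. Uqcrc1 stood at 486, 631 and 449 CPM in WT and 231, 179 and 516 CPM in TCF-1 cKO, with replicate 3 within the WT range. T cell markers were also lower in these TCF-1 cKO libraries, with Cd8a at 57.3, 66.2 and 47.7 CPM against 200, 131 and 187 CPM in WT, and their part in the members' values was not tested.

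At day 7, 11 of 92 members were lower in TCF-1 cKO and none was higher. This share of 12% is below the 15.4% of all 16026 genes that were lower (2.51% were higher), so the lower calls are no more frequent among members than in the whole table. The median was 0.01 for nuclear members, 0.78 for mitochondrial members and 0.15 for all genes. At an unadjusted p under 0.05, 27 of 92 members differed, against 28.1% of all genes. In CPM, 32 members were higher without overlap and 15 lower, against 27.0% and 15.7% of all genes. With library totals 1 member was higher and 9 lower, against 3.09% and 10.8% of all genes, and all 9 are among the 11. Marker sums of other cell types differed in the same comparison. The 4 plasmacytoid dendritic cell markers summed to 223, 222 and 61.5 CPM in WT and 57.9, 51.0 and 58.7 CPM in TCF-1 cKO, which was mainly Irf8 (213, 216 and 44.3 CPM against 37.1, 28.8 and 27.7 CPM), a gene that T cells also express, with Siglech at 0.154 to 3.39 CPM. The 8 myeloid markers summed to 66.3, 56.5 and 113 CPM in WT and 211, 120.3 and 477 CPM in TCF-1 cKO, with no overlap. No marker of these lists was at 0 in all libraries of a group, and the part of such cells in the members' values was not tested. The 11 genes were spread over all complexes: Ndufs7 and Ndufv1 of complex I, Sdhd of complex II, Uqcrc1 of complex III, Cox5b, Cox6a1 and Cox8a of complex IV, and Atp5b, Atp5d, Atp5g1 and Atp5g2 of complex V. Their log2 fold changes ran from −1.51 to −3.49 and their adjusted p from 0.0448 to 0.0930. The mitochondrial members did not pass (0 of 13, with 3 at an unadjusted p under 0.05), although all 13 had positive values.

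Atp5d stood at 1146, 1576 and 276 CPM in WT and at 158, 122 and 135 CPM in TCF-1 cKO (−3.49 ± 0.753, adjusted p = 0.0448). Cox8a, the ubiquitous form of complex IV subunit 8, stood at 674, 834 and 219 CPM in WT and 103, 87.1 and 85.4 CPM in TCF-1 cKO (−3.25 ± 0.666, adjusted p = 0.0448). Uqcrc1 stood at 1760, 1983 and 535 CPM in WT and 272, 280 and 231 CPM in TCF-1 cKO (−3.05 ± 0.645, adjusted p = 0.0448). In these genes the groups did not overlap, and the library labelled WT replicate 3 lay nearest to the knockout libraries. Cox6a1, the ubiquitous form of subunit 6a, was at 568, 756 and 189 CPM in WT and 93.1, 90.0 and 76.4 CPM in TCF-1 cKO (−3.15 ± 0.675, adjusted p = 0.0448). Atp5g2 was at 117, 119 and 51.8 CPM in WT and 18.97, 21.4 and 14.9 CPM in TCF-1 cKO (−2.94 ± 0.597, adjusted p = 0.0448). Atp5b, the catalytic β subunit of the ATP synthase, was at 2356, 2297 and 1038 CPM in WT and 512, 967 and 428 CPM in TCF-1 cKO (−2.12 ± 0.579, adjusted p = 0.0548). Atp5g1 was at 458, 524 and 180.2 CPM in WT and 80.2, 143 and 90.9 CPM in TCF-1 cKO (−2.46 ± 0.627, adjusted p = 0.0483). Its groups stood apart, as did those of Ndufs7, which was at 453, 482 and 139.6 CPM in WT and 93.5, 55.3 and 63.0 CPM in TCF-1 cKO. Ndufv1, the complex I subunit that binds NADH, was at 333, 470.1 and 102.5 CPM in WT and 36.7, 139 and 45.7 CPM in TCF-1 cKO, the only overlap among the 11 genes (−2.63 ± 0.834, adjusted p = 0.0823). Cox5b, a zinc-binding complex IV subunit, was at 402, 423 and 287 CPM in WT and 165, 262 and 128 CPM in TCF-1 cKO, and Cox5a, its neighbour in name and complex, did not pass (−1.21 ± 0.474, adjusted p = 0.14). Sdhd, the other membrane anchor of complex II, was at 243, 147 and 109 CPM in WT and 31.7, 66.1 and 33.7 CPM in TCF-1 cKO (−2.42 ± 0.579, adjusted p = 0.0453). For all 11 genes WT replicate 3 was the lowest of its group. Among the 68 nuclear members that did not pass, the same library was the highest of its group in 51. The highest library exceeded the lowest by a median of 2.46 times in WT and 1.33 times in TCF-1 cKO over the 79 nuclear members tested.

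Without the library labelled WT replicate 3, all 11 genes were lower (−4.02 to −1.85, largest adjusted p = 0.0180). That library was the lowest of WT for all 11, so leaving it out raises the WT mean and cannot test these calls. In all, 21 members were lower and 24 higher in TCF-1 cKO, with 19.4% and 9.72% of all genes called. The higher genes included mt-Co2 (1.72, adjusted p = 0.0403), mt-Cytb (1.72, adjusted p = 0.0487) and Ndufs5 of complex I (1.52, adjusted p = 0.0274). Leaving out any other library of this comparison gave no member in either direction, WT replicates 1 and 2 included. In results without that library the 18 nuclear genes called higher had a median transcript GC content of 47.8% and the 21 called lower of 56.2%.

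GC content moved with the day 7 genotype difference. The 11 lower members had a median GC content of 56.5%, against 50.9% for the 68 nuclear members not called. Across the 79 nuclear members Spearman's rho between GC content and log2 fold change was −0.66, and across all 16026 genes it was −0.57. These are descriptions across genes that share the same 6 libraries. With an offset for GC content and length no member passed in either direction, with 34 at an unadjusted p under 0.05, and the mitochondrial median went from 0.78 to −0.16. With a least-squares form of that offset 8 members were lower, and the mitochondrial median was again −0.16. Shares of all genes under these offsets are not given here, so these counts cannot be set against other genes. In the stage comparisons rho was 0.25 in WT and −0.28 in TCF-1 cKO across nuclear members, and 0.16 and −0.13 across all genes. Between genotypes pre-transplant it was −0.004 across nuclear members and −0.29 across all genes.

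**Figure D3:**
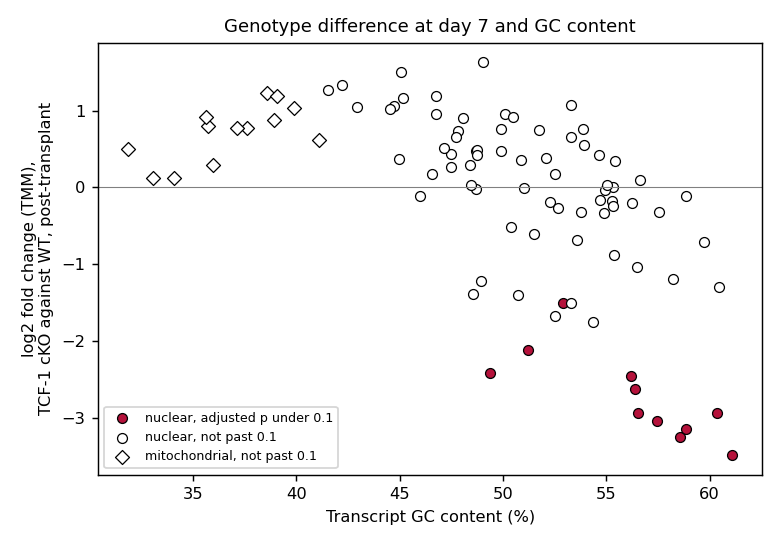
Log2 fold change of TCF-1 cKO against WT at day 7 (y axis, TMM) plotted on transcript GC content in percent (x axis) for the 92 members tested; circles are nuclear, diamonds mitochondrial, and filled points passed an adjusted p of 0.1. The filled points lie between 49.4% and 61.1% GC, and the mitochondrial members lie between 31.9% and 41.1%.

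The mtDNA-encoded transcripts had a pattern of their own. mt-Co3 was at 7244, 1234 and 6888 CPM in WT and 7160, 9173 and 1157 CPM in TCF-1 cKO pre-transplant. Post-transplant it was at 14963, 6827 and 22200 CPM in WT and 43403, 23290 and 36423 CPM in TCF-1 cKO (stage change 2.35, adjusted p = 0.0396 in WT and 4.29 ± 0.670, adjusted p = 0.00147 in TCF-1 cKO). It made up 28.7%, 19.04% and 29.6% of mitochondrial counts in WT and 24.5%, 28.2% and 20.4% in TCF-1 cKO pre-transplant, and 48.2% to 63.0% in all 6 post-transplant libraries. mt-Co1, the catalytic subunit of complex IV, was at 6592, 1116 and 6711 CPM in WT and 8271, 7643 and 980 CPM in TCF-1 cKO pre-transplant, and at 4460, 1786 and 8130 CPM and 16492, 8658 and 11296 CPM post-transplant. WT pre-transplant replicate 2, TCF-1 cKO pre-transplant replicate 3 and WT post-transplant replicate 2 held the lowest mt-Co1 of their groups, and the erythroid marker sum was highest in each of these 3 groups in the same library. In TCF-1 cKO post-transplant the lowest mt-Co1 was in replicate 2 and the highest erythroid sum in replicate 3 (248.5 and 553 CPM). The part of erythroid RNA in the mitochondrial levels was not tested.

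mt-Nd6, a complex I subunit and the only member read from the other strand of mtDNA, did not pass the test between stages in either genotype. It was at 115, 103 and 92.3 CPM in WT and 151, 165 and 94.5 CPM in TCF-1 cKO pre-transplant and at 43.1, 19.99 and 86.3 CPM and 78.1, 67.9 and 54.4 CPM post-transplant. All post-transplant libraries were below all pre-transplant libraries of the same genotype. In WT the same held for mt-Nd4l. Such a fall in CPM without overlap was common, with 38.3% of all genes in WT and 54.4% in TCF-1 cKO. With TMM scaling the log2 fold change of mt-Nd6 was −0.19 (adjusted p = 0.85) in WT and 0.59 ± 0.343 (adjusted p = 0.23) in TCF-1 cKO. Scaled to library totals, mt-Nd6 fell by 1.04 in TCF-1 cKO (adjusted p = 0.0363), where 57.2% of all genes were called lower. mt-Nd5, a large membrane-arm subunit of complex I, did not pass in either genotype (−0.73, adjusted p = 0.50 and 1.06 ± 0.497, adjusted p = 0.14). mt-Nd1, mt-Nd2 and mt-Nd4 of complex I rose in TCF-1 cKO by 2.37 ± 0.497, 1.85 ± 0.429 and 1.72 ± 0.440, and did not pass in WT (1.17, 0.44 and −0.13). mt-Cytb, the cytochrome b of complex III, rose by 2.42 ± 0.488 in TCF-1 cKO and stood at 0.15 in WT. For mt-Nd1, mt-Nd2, mt-Nd4 and mt-Cytb the difference between the stage changes of the genotypes did not pass (0.95, 1.15, 1.59 and 2.01, lowest adjusted p = 0.30). mt-Atp6, the proton channel subunit of the ATP synthase, was at 2371, 906 and 1726 CPM in WT pre-transplant and 2741, 745 and 5357 CPM post-transplant, and it went from 3457, 3739 and 946 to 4811, 3922 and 4311 CPM in TCF-1 cKO (2.37 ± 0.455, adjusted p = 0.00434). Only the TCF-1 cKO groups of mt-Atp6 stood apart. The 11 mitochondrial members that passed in TCF-1 cKO rose by 1.40 (mt-Nd4l) to 4.29 (mt-Co3) with TMM. With library totals 4 of the 13 were higher in TCF-1 cKO (mt-Co2, mt-Co3, mt-Nd3 and mt-Atp8), and mt-Nd3 alone was in WT (1.62, adjusted p = 0.0584).

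**Figure D4:**
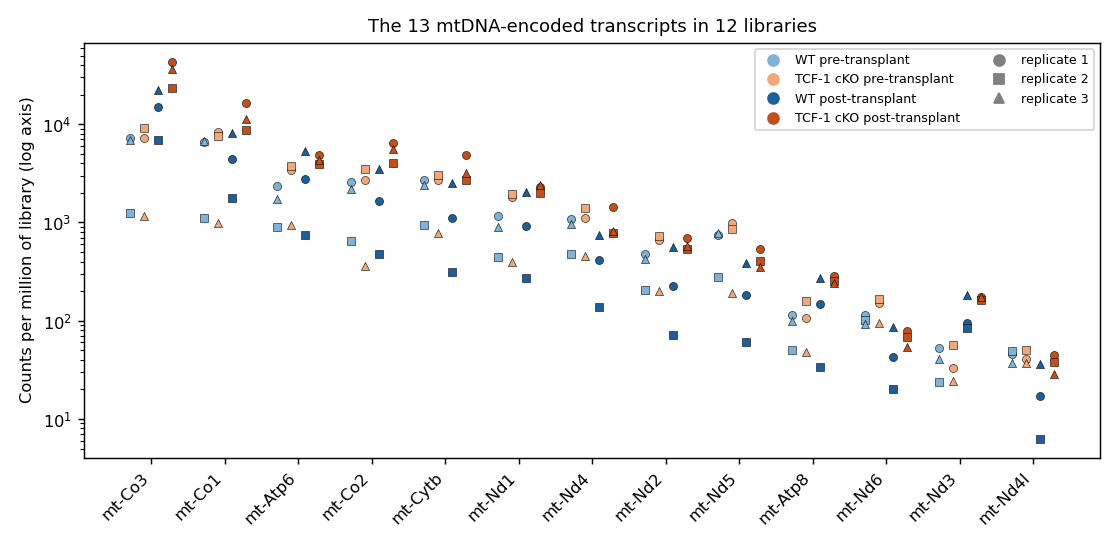
CPM (log axis) of the 13 mtDNA-encoded transcripts in each of the 12 libraries, with colors for groups and symbols for replicates, ordered by median level. mt-Co3 reaches 43403 CPM in TCF-1 cKO post-transplant, while mt-Nd6 is lower post-transplant than pre-transplant in both genotypes. Of all genes, 38.3% in WT and 54.4% in TCF-1 cKO were also lower in CPM without overlap.

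Some counts of the members can lie with near-identical copies. At 95% identity or more, 38 members (29 nuclear and 9 mitochondrial) had 66 copies among the annotated transcripts, of which 11 exceeded 10 CPM in any library. A copy held more counts than its member for 4 genes. Gm10175, a processed pseudogene on chromosome 7 that matches Atp5g2 over 645 bases with 100% identity, exceeded Atp5g2 in all 12 libraries (399, 480 and 114 CPM in WT and 60.7, 37.3 and 56.4 CPM in TCF-1 cKO at day 7). With the copy added, Atp5g2 was still lower at day 7 in TCF-1 cKO (−3.21 ± 0.660, adjusted p = 0.0446). Ndufb4c, identical to Ndufb4 over 390 bases, exceeded it in 2 libraries, and the summed gene rose in both genotypes (3.34 ± 0.517 and 4.97 ± 0.401). On chromosome 1, Gm29216 matches part of mt-Co1 and held 687 to 8282 CPM. The division of reads between such pairs is uncertain.

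The last pair, mt-Nd3 and its copy, differed between WT and TCF-1 cKO pre-transplant in how counts were assigned. Gm28438, a nuclear copy of mtDNA on chromosome 1 (chr1:24612775-24613119, GRCm38), matches mt-Nd3 (chrM:9459-9806), a complex I subunit, over 345 bases with 1 difference. In the reference transcripts it is T3C, with positions counted from 1 at the 5′ end of mt-Nd3, the mt-Nd3 base first and the base of the copy last. The first 30 bases are shown because they hold that difference, which is in capitals, and are taken from the GENCODE M21 transcripts.
mt-Nd3: atTaacctgtacactgttatcttcattaat
Gm28438: atCaacctgtacactgttatcttcattaat
No counts were assigned to Gm28438 in the 3 WT pre-transplant libraries, where mt-Nd3 had 1509, 448 and 1029 counts. In TCF-1 cKO pre-transplant Gm28438 had 363, 367 and 67 counts beside 172, 252 and 230 of mt-Nd3, or 67.9%, 59.3% and 22.6% of the pair. Post-transplant it held 33.5%, 15.4% and 41.6% in WT and 26.9%, 29.4% and 32.4% in TCF-1 cKO. The genotypes did not overlap in this share pre-transplant and did post-transplant. A total of 3 counts, the smallest level taken as detected, is 0.104 to 0.159 CPM in the WT pre-transplant libraries. The base that the mtDNA of these mice carries at position 3 is not given in the sources used here, and transcripts of mt-Nd3 with the base of the copy could be counted under Gm28438, so the 2 sources of its counts cannot be told apart. The pair summed to 52.5, 23.7 and 41.2 CPM in WT and 102, 138 and 31.1 CPM in TCF-1 cKO pre-transplant and to 141, 100.1 and 312 CPM and 237, 228 and 258 CPM post-transplant. The sum rose between stages in both genotypes (3.09 ± 0.580, adjusted p = 0.00752 in WT and 3.11 ± 0.467, adjusted p = 0.00117 in TCF-1 cKO).

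**Figure D5:**
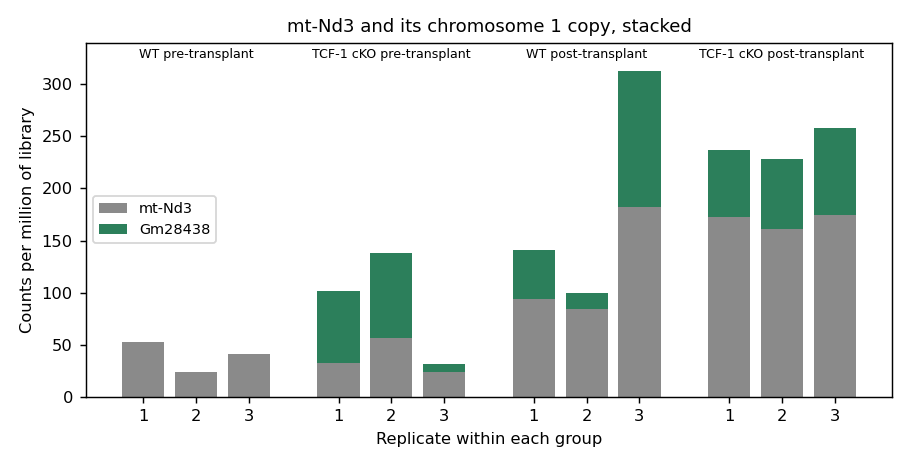
CPM assigned to mt-Nd3 (grey) and to Gm28438 (green), stacked, for the 12 libraries by group and replicate. Gm28438 is 0 in the 3 WT pre-transplant libraries and between 7.03 and 130.03 CPM in the other 9.

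Genes that build or regulate the complexes were counted from lists. Of 46 assembly factors 45 were tested. Post- against pre-transplant, 12 were higher and none lower in WT (median 1.34, against 9.70% and 10.3% of all genes called) and 26 were higher and 1 lower in TCF-1 cKO (median 1.36, against 19.7% and 16.8%). Uqcc2, which helps to build complex III, rose by 3.90 ± 0.524 in WT and 4.93 ± 0.543 in TCF-1 cKO. Coa6 and Cox17, copper handling factors of complex IV, rose by 2.65 ± 0.715 and 2.69 ± 0.480 in WT and by 4.34 ± 0.401 and 3.64 ± 0.447 in TCF-1 cKO. Surf1, Pet100 and Cox20 of complex IV rose in both genotypes, and in TCF-1 cKO Ndufaf5 (3.65 ± 0.451), Ndufaf1, Ndufaf2, Ndufaf6 and Ndufaf7 of complex I and Sdhaf4 (3.85 ± 0.441) of complex II rose, while Cox15, a heme a synthesis enzyme, fell by 1.40. Cycs, the somatic cytochrome c, was at 46.2, 29.2 and 39.7 CPM in WT pre-transplant and 146, 26.2 and 306 CPM post-transplant (2.85 ± 0.726, adjusted p = 0.0273), and rose by 4.26 ± 0.385 in TCF-1 cKO. At day 7 between genotypes, 5 assembly factors were lower and none higher (Ecsit, Sdhaf1, Sco2, Cox10 and Atpaf2), against 15.4% of all genes lower. Without the library labelled WT replicate 3, 9 were lower and 5 higher, against 19.4% and 9.72% of all genes. The 5 named genes were among the lower. Cyc1, the cytochrome c1 of complex III, was at 541, 737 and 143 CPM in WT and 75.0, 78.5 and 92.0 CPM in TCF-1 cKO (−3.16 ± 0.729, adjusted p = 0.0448), again with WT replicate 3 nearest to TCF-1 cKO, and its difference without that library was −3.69 ± 0.384.

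Of 19 genes of mtDNA maintenance and expression, 1 was higher and 1 lower in WT between stages (9.70% and 10.3% of all genes), and 10 were higher and 1 lower in TCF-1 cKO (19.7% and 16.8% of all genes). Slirp, which stabilizes mitochondrial mRNAs, rose in both (2.37 ± 0.810 and 4.93 ± 0.439), and its partner Lrpprc fell by 1.60 in WT. Tfam, which packages mtDNA and starts its transcription, was at 65.1, 36.6 and 84.8 CPM in WT pre-transplant and 35.5, 14.3 and 80.9 CPM post-transplant (0.29 ± 0.632, adjusted p = 0.81). In TCF-1 cKO it went from 64.4, 58.5 and 14.7 to 117, 86.1 and 138 CPM (3.00 ± 0.506, adjusted p = 0.0022). The difference between these stage changes did not pass (2.45 ± 0.841, adjusted p = 0.24). Ssbp1, Mterf1a, Mterf2 and Pnpt1 also rose in TCF-1 cKO, and Polg2 fell by 1.31. At day 7 Mterf1a was higher in TCF-1 cKO (2.12 ± 0.469), and Polrmt, the mitochondrial RNA polymerase, Polg and Polg2 were lower, with 2.51% of all genes higher and 15.4% lower. Without the library labelled WT replicate 3, 7 of the 19 were higher and 3 lower (9.72% and 19.4% of all genes), these 4 among them. Polrmt was at 48.0, 80.8 and 9.76 CPM in WT and 8.08, 14.1 and 10.1 CPM in TCF-1 cKO, so that the groups overlapped.

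Of 10 nuclear regulators, none passed in WT between stages, with 2 higher and 5 lower in TCF-1 cKO (19.7% and 16.8% of all genes). The GABP subunits Gabpa and Gabpb1 rose by 2.08 ± 0.469 and 2.59 ± 0.538, and Myc, Ppargc1b, Esrra, Tfeb and Pprc1 fell. Ppargc1b, a coactivator of mitochondrial biogenesis, was at 16.3, 15.1 and 14.4 CPM before and 0.22, 0.55 and 1.23 CPM after. Its relative Ppargc1a did not pass (−1.02 ± 0.580, adjusted p = 0.22). At day 7 Esrra, an orphan nuclear receptor of respiratory genes, and Myc were lower in TCF-1 cKO (−3.08 ± 0.650 and −3.01 ± 0.697, adjusted p = 0.0448 for both, with 15.4% of all genes lower). Without the library labelled WT replicate 3 both were lower (−3.43 ± 0.632 and −3.49 ± 0.507). In all, 4 of the 10 regulators were lower without it, against 19.4% of all genes. For Myc that library was the lowest of WT, so leaving it out cannot test its difference. Myc was at 25.7, 37.5 and 10.3 CPM in WT and 5.60, 4.58 and 3.72 CPM in TCF-1 cKO. Before transplant no gene of these lists passed between genotypes, and no gene of them passed the test of the change in the genotype difference between stages.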

How the data were processed

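RNA of sorted cells was made into cDNA with the SMART-Seq HT kit and into Nextera XT libraries. The authors pseudoaligned paired reads with Kallisto (0.46.2, per the labels) and deposited an estimated count and a TPM value for each of 117497 transcripts per library. The submitters' notes name mm9, and the transcript release is not given in the sources used here. Estimated counts were summed over genes with GENCODE M21 (GRCm38), which matched 116374 transcripts and 99.53% to 99.74% of counts, and rounded. CPM is relative to the summed gene counts of a library. Groups were taken from sample titles. No source used here says that replicates are separate animals, so p-values measure the spread between libraries, which may be technical.

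Each comparison was tested with edgeR 4.0.16 (quasi-likelihood test, TMM, filterByExpr) over all genes, with Benjamini-Hochberg adjustment and an FDR of 0.1. The fit was also run on simulated counts with known changes. These counts held no outlying library, GC trend or difference in cell content, so they cannot speak to such effects. Overlap between groups was judged on CPM. Library totals without TMM and a least-squares GC offset were alternatives added after seeing the data. Members and lists were chosen with earlier results of these data known. Genes were named by a rule (all mitochondrial members, core subunits, tissue isoforms, members with an abundant copy, and up to 5 per direction with the smallest p and no overlap). Copies were found with BLAST 2.17.0. Of the members, 7 did not pass the filter at day 7 between genotypes (6 genes of tissue isoforms and a second Atp5o gene), 6 pre-transplant, 5 in each stage comparison and 3 over all 12 libraries. RefSeq promoters were not found for 19 nuclear members. The rule's symbols also matched 13 genes that are not protein-coding, which were left out. One core subunit that the rule names is not reported here by name.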

Additional observations from a re-analysis of the deposited data

How the results depend on the processing

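The counts of members called depended on single libraries. Most counts in this section are given without the share of all genes called in the same fit. They show how calls moved with the processing, not whether members differed from other genes. Leaving out 1 library at a time gave 0 to 30 lower members before transplant (30 without TCF-1 cKO replicate 3), 0 to 24 higher and 0 to 21 lower at day 7 (24 and 21 without WT replicate 3), 33 to 75 higher and 1 to 2 lower in WT between stages, 72 to 86 higher and 0 to 1 lower in TCF-1 cKO, and 0 to 23 higher and 0 to 4 lower in the change of the genotype difference (23 and 4 without WT post-transplant replicate 3). Before transplant, DESeq2 and the block with GC and length offset each gave 1 lower member. At day 7, higher members numbered 2 by DESeq2, 2 by limma-voom, 1 with DESeq2 size factors, 1 with copies added, 3 in 1 fit over all 12 libraries and 1 with library totals, and lower members 19 by DESeq2 and 0 with the GC and length offset, with or without the block. The mitochondrial median at day 7 was −0.16 with the least-squares offset and also with the other form of the GC and length offset. Library totals gave 35 higher and 2 lower members in WT and 7 lower in TCF-1 cKO, where an FDR of 0.05 gave 0 lower. DESeq2 gave 14 higher and 3 lower for the change in the genotype difference. The causes were not tested. Correlations of same-numbered deviations were weak (−0.13 to 0.17). At day 7 each TCF-1 cKO library was closest to the WT library of its number (0.087, 0.029 and 0.123). In the other comparisons this did not hold for all libraries, and no source used here says that numbers pair the samples. With the replicate block, 4 members were higher and 15 lower at day 7, and 0 were lower in TCF-1 cKO between stages. The ratio of mitochondrial to nuclear counts was recomputed under 9 alternatives in each comparison and moved by less than the spread between replicates. Scaling a whole library cannot change a ratio taken within it, so such settings do not test it. Depth limits the TCF-1 cKO pre-transplant libraries most, where 3 counts are 0.315 to 0.667 CPM.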
